A study of Homo sapiens with 18 samples.

Results

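The 42 genes described here belong to 2 linked stress programmes of mammalian cells, the integrated stress response that runs through the transcription factor ATF4 and the unfolded protein response of the endoplasmic reticulum (ER). They were taken as a list of symbols, matched to the Ensembl gene IDs of the expression table, and all 42 of 42 were found among its 16472 genes. By role they comprised 4 transcription factors, 6 feedback and stress effectors, 6 enzymes of amino acid and one-carbon synthesis, 4 amino acid transporters, 10 genes of tRNA export and tRNA charging, and 12 ER chaperones and other unfolded protein response genes.

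In the integrated stress response, kinases that sense viral RNA, amino acid shortage, heme shortage or misfolded ER proteins phosphorylate the initiation factor eIF2, which lowers protein synthesis in general and raises translation of ATF4. ATF4 then activates genes for making, importing and charging amino acids, together with feedback genes such as TRIB3 and DDIT3. Misfolded proteins in the ER also activate IRE1 and ATF6, which raise ER chaperones through XBP1 and through cleaved ATF6. Interferon connects to the first pathway because PKR, the eIF2 kinase that senses double-stranded RNA and is encoded by EIF2AK2, is an interferon-induced gene.

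RNA was sequenced from NIKS cells, an established line of immortalized human keratinocytes of normal origin, cultured on irradiated J2/3T3 mouse fibroblasts. The SP100 gene, which encodes a component of PML nuclear bodies, was wild type (WT) or knocked out (KO). Each genotype was left untreated (0 h) or treated for 12 or 48 h with 25 ng/mL of human interferon alpha 2a, and each of the 6 groups had 3 libraries that the labels call biological replicates. The library names point to 1 line per genotype, so SP100 loss and other ways in which those lines differ cannot be told apart, and without untreated libraries at 12 and 48 h the same is true of time in interferon and time in culture.

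Values are RPKM, read density over a gene's length relative to library size. Sequencing depth was recovered only relative to the mean and ran from 0.844 to 1.263 over the 18 libraries. SP100 was lower in KO than in WT at every time, by a log2 difference of -0.94, -0.83 and -1.08 at 0, 12 and 48 h. Its RNA was still present in KO, at 15.97, 14.22 and 15.21 RPKM at 0 h against 30.14, 31.91 and 27.9 RPKM in WT. At 12 h it was at 93.18, 86.5 and 87.53 RPKM in KO and 155.5, 172.07 and 150.82 RPKM in WT. SP100 protein is not measured by these libraries. All 15 keratinocyte markers were in the table, with a summed level of 20746 to 25695 RPKM per library. Of 12 fibroblast markers 5 were present, with sums of 6.77 to 10.3 RPKM. These are human genes, and whether RNA of the mouse feeder cells was present was not tested. Of 6 melanocyte markers 2 were present, with sums of 0.98 to 2.34 RPKM, and the only one of 7 leukocyte markers was CD68. CD68, a lysosomal protein of macrophages that other cells also make, was at 18.58 to 19.97 RPKM in WT at 0 h, 50.6 to 56.7 RPKM at 12 h and 34.3 to 41.3 RPKM at 48 h. Its KO ranges were 14.4 to 15.4, 43.3 to 50.2 and 33.8 to 37.9 RPKM, and its part in the changes below was not tested. An interferon check list of 18 induced genes was higher throughout, 18 of 18 genes at both times in both genotypes.

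The promoters of the members were searched for response elements as a description only. The 3 shown were picked because they carry the elements of the 3 pathways concerned. Whether such elements had a part in the changes below was not tested. Of the 42 members, 38 had an entry in the RefSeq promoter table (GRCh38.p14), and PSPH, SHMT2, SLC7A11 and YARS1 had none. The 250 bases before each annotated start were searched on both strands. Below are the 120 bases before the start of ASNS (chr7:97872409-97872528, minus strand), HSPA5 (chr9:125241344-125241463, minus strand) and the second start of WARS1 (chr14:100375348-100375467, minus strand), with the matched motif in capitals.
ASNS: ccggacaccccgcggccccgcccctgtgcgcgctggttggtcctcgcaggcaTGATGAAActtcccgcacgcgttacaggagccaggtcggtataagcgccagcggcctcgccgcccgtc
HSPA5: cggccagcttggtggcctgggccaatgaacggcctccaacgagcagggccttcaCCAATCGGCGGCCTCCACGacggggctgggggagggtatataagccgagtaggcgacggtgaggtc
WARS1: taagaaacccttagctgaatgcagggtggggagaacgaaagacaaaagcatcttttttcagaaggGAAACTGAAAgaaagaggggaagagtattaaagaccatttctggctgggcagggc
The capitals mark the C/EBP-ATF response element (TGATGNAA) in ASNS, the ER stress response element (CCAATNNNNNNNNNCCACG) in HSPA5, and the core of the interferon-stimulated response element (GAAANNGAAA) in WARS1.

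The C/EBP-ATF element occurred in 8 of the 38 members (21.1%), against 3.89% of all 27305 genes with a promoter entry. Besides ASNS these were ATF3, CHAC1, SLC1A5, AARS1, GARS1, IARS1 and HERPUD1, so that each of the 5 role groups outside the ER had at least 1 and the ER group had 1. The ER stress response element occurred in 4 of the 12 ER genes (33.3%), against 0.0916% of all genes. Its second form (ATTGGNCCACG) occurred in 3 of the 12 (25.0%), against 0.0659%. The sites of the ER genes other than HSPA5 read as follows, each shown on the strand of its gene, where a site that begins with CGTGG is the reverse complement of the motif.
HSP90B1, first site: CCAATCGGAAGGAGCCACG
HSP90B1, second site: CGTGGTGCGGCGCGATTGG
XBP1: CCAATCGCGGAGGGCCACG
CRELD2: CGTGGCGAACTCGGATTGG
HERPUD1: ATTGGGCCACG
SDF2L1: CGTGGACCAAT
HYOU1, both sites: CGTGGTCCAAT
The unfolded protein response element (TGACGTGG) matched in HYOU1 alone among the members, where it overlapped the more distant of the 2 sites above, against 0.78% of all genes. The interferon element core matched only in WARS1 among the 38 members (2.63%), a smaller share than the 3.71% of all genes. These matches describe letters in a window and do not show binding. The members were listed as genes of the pathways to which these elements belong. A share above that of all genes was therefore built into the choice and tests nothing.

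At 12 h in interferon most of the 12 ER genes rose and most of the other 30 members fell or were not called. In WT, 12 of the 42 members were higher (28.6%, against 15.1% of the 13280 genes tested) and 19 were lower (45.2%, against 29.8%). In KO, 9 were higher (21.4%, against 16% of genes) and 23 lower (54.8%, against 32.8%). A call is a Benjamini-Hochberg adjusted p under 0.05 in limma over all genes tested. Changes are differences of log2(RPKM + 1), so that those of genes at low levels are understated. Of the ER genes in WT, 10 rose and 1 fell, and in KO 8 rose against 1 that fell, with median log2 changes of 0.32 and 0.25. Of the other 30 members in WT, 2 rose and 18 fell, and in KO 1 rose against 22 that fell, with medians of -0.20 and -0.36. The median over all genes tested was -0.09 in both genotypes. In bulk RNA a lower share of cells that express a gene and less RNA per cell cannot be told apart.

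The 2 genotypes, whose libraries are separate, gave overlapping calls at 12 h. The 9 members higher in KO were all among the 12 higher in WT, the 19 lower in WT were all among the 23 lower in KO, and 0 members were called in opposite directions. The same overlap was not counted over all genes, so it is not shown to be particular to the members. Part of the small decreases depended on how libraries were scaled. Median-of-ratios scaling moved the median of all genes up by 0.09 in WT and 0.10 in KO. With it 13 of the 42 members were higher (against 21.8% of genes) and 12 lower (against 20.5%) in WT. KO had 10 higher (against 23.7%), a share at the level of all genes, and 19 lower (against 22.9%). Under this scaling 11 of the 30 members outside the ER group were lower in WT and 18 in KO.

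**Figure D1:**
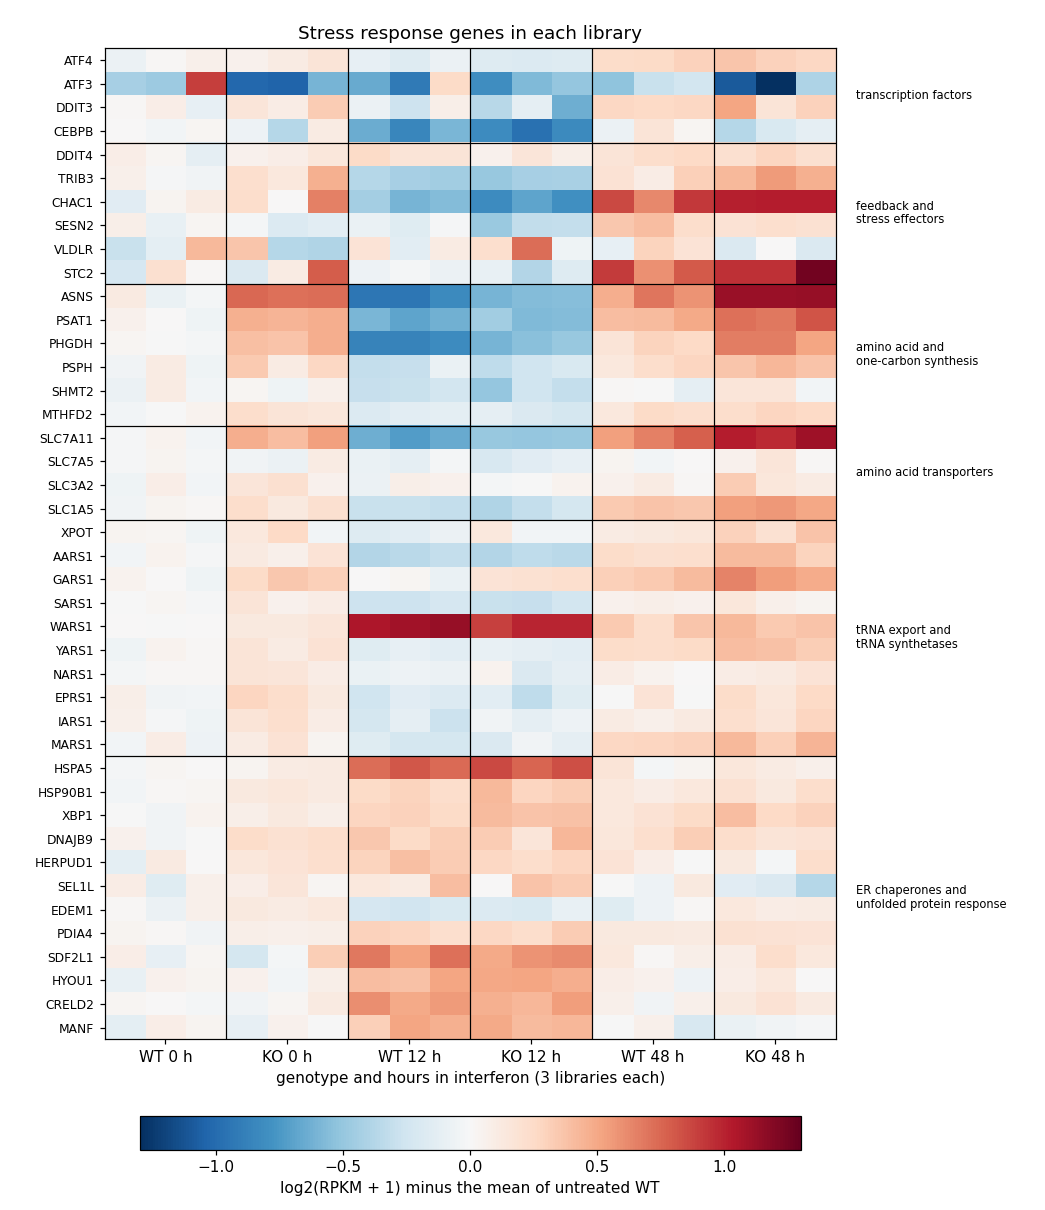
Level of the 42 members (rows, by role) in each of the 18 libraries (columns, 3 per group), as log2(RPKM + 1) minus the mean of the 3 untreated WT libraries, with red above and blue below that mean. At 12 h the synthesis genes are blue and most ER genes and WARS1 are red, and at 48 h ASNS, SLC7A11, CHAC1 and STC2 are red. ATF3 and VLDLR vary within groups.

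At 12 h 10 of the 12 ER genes rose in WT and 8 in KO, and at 48 h 3 of the 12 in WT and 2 in KO were called above untreated. Among all genes 15.1% in WT and 16% in KO were higher at 12 h, and 6.52% and 5.9% at 48 h. HSPA5, which encodes the main Hsp70 chaperone of the ER lumen (BiP), was at 249.6, 258 and 255 RPKM in untreated WT, 422, 446 and 425 RPKM at 12 h, and 287, 249.7 and 261 RPKM at 48 h. In KO it was at 259.9, 273 and 276 RPKM untreated, 462, 430.4 and 456 RPKM at 12 h, and 281, 275 and 267 RPKM at 48 h. The 12 h libraries of both genotypes lay above all others, and the 48 h libraries overlapped the untreated ones. The log2 change at 12 h was 0.76 in WT and 0.73 in KO (SE 0.045, limma, adjusted p = 1.95e-09 and 2.8e-09). At 48 h it was 0.06 and 0.02 (adjusted p = 0.436 and 0.784).

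SDF2L1, a component of ER chaperone complexes, was at 18.1, 15.7 and 17.2 RPKM in untreated WT and 27.9, 24.8 and 28.6 RPKM at 12 h. The KO libraries held 14.3, 16.6 and 21.5 RPKM untreated and 24.3, 26.0 and 26.6 RPKM at 12 h. The groups did not overlap in either genotype, although KO replicate 3 at 0 h stood above the other untreated libraries. The log2 change was 0.64 in WT and 0.54 in KO (SE 0.10, limma, adjusted p = 0.000118 and 0.000421). CRELD2, an ER stress-induced folding factor, was at 18.5 to 19.1 RPKM in untreated WT and 26.8 to 29.1 RPKM at 12 h, and at 18.1 to 20.5 and 25.8 to 27.8 RPKM in KO. Its log2 change was 0.55 and 0.44 (SE 0.051, limma, adjusted p = 4.75e-07 and 3.85e-06).

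XBP1, the transcription factor of the IRE1 branch, was above untreated at both times. It was at 40.3, 39.2 and 41.9 RPKM in untreated WT, 49.3, 49.9 and 48.1 RPKM at 12 h, and 44.6, 46.2 and 48.3 RPKM at 48 h. Levels in KO were 42.8, 44.2 and 42.5 RPKM, then 54.2, 52.6 and 53.1 RPKM, then 53.8, 48.6 and 50.1 RPKM. All treated libraries lay above all untreated libraries of the same genotype. The log2 change at 48 h was 0.19 in WT and 0.23 in KO (SE 0.042, limma, adjusted p = 0.00613 and 0.00151). The other ER calls at 48 h were PDIA4 in both genotypes, at 0.13 and 0.12, and HSP90B1 in WT, at 0.12. The HSP90B1 call was lost without any 1 of the 6 WT libraries at 0 and 48 h (adjusted p of 0.137, 0.0713 and 0.057 without replicates 1, 2 and 3 at 0 h, and 0.0947, 0.0597 and 0.1 at 48 h). The PDIA4 call was lost in WT without replicate 3 at 0 h or 2 at 48 h (adjusted p = 0.0867 and 0.0502). In KO it was lost without any 1 library (0.0701, 0.0807 and 0.0518 for replicates 1, 2 and 3 at 0 h, and 0.0693, 0.0727 and 0.0529 at 48 h). Gene-level RPKM does not separate the spliced, active form of XBP1 mRNA from the unspliced one.

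Of the remaining ER genes 6 were called higher in WT and 4 in KO at 12 h. MANF, a secreted ER stress factor, changed by 0.43 and 0.46 at 12 h in WT and KO, and HYOU1, a large ER chaperone that acts with HSPA5, by 0.43 and 0.46. HSP90B1, the Hsp90 of the ER, changed by 0.25 and 0.21, and PDIA4, a disulfide isomerase, by 0.26 and 0.21. DNAJB9 and HERPUD1, a co-chaperone and a degradation factor, were called in WT, with changes of 0.31 and 0.34, and not in KO, where the values were 0.08 and 0.08. Median-of-ratios scaling called HERPUD1 in KO as well (0.18, adjusted p = 0.0438). EDEM1, which directs misfolded glycoproteins to degradation, fell by 0.22 and 0.28. SEL1L, an adaptor of the same degradation pathway, was not called at 12 h, with values of 0.21 and 0.15, but was with median-of-ratios scaling in WT (0.31, adjusted p = 0.026) and without KO replicate 1 at 12 h in KO (0.26, adjusted p = 0.0462).

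A wider list of 21 further ER chaperones and degradation genes tested moved the same way, with 14 higher and 1 lower at 12 h in each genotype. Among all genes 15.1% were higher and 29.8% lower in WT, and 16% and 32.8% in KO. CALR, a lectin chaperone, changed by 0.64 in both genotypes, DNAJB11, an HSPA5 co-chaperone, by 0.53 and 0.49, and DERL2, a degradation factor, by 0.43 and 0.51 in WT and KO. Of the 6 genes for the sensors themselves and their proteases 1 was called in each genotype at 12 h, ATF6B, a relative of ATF6, with changes of -0.35 and -0.38. The shares of all genes called lower were the 29.8% and 32.8% above.

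**Figure D2:**
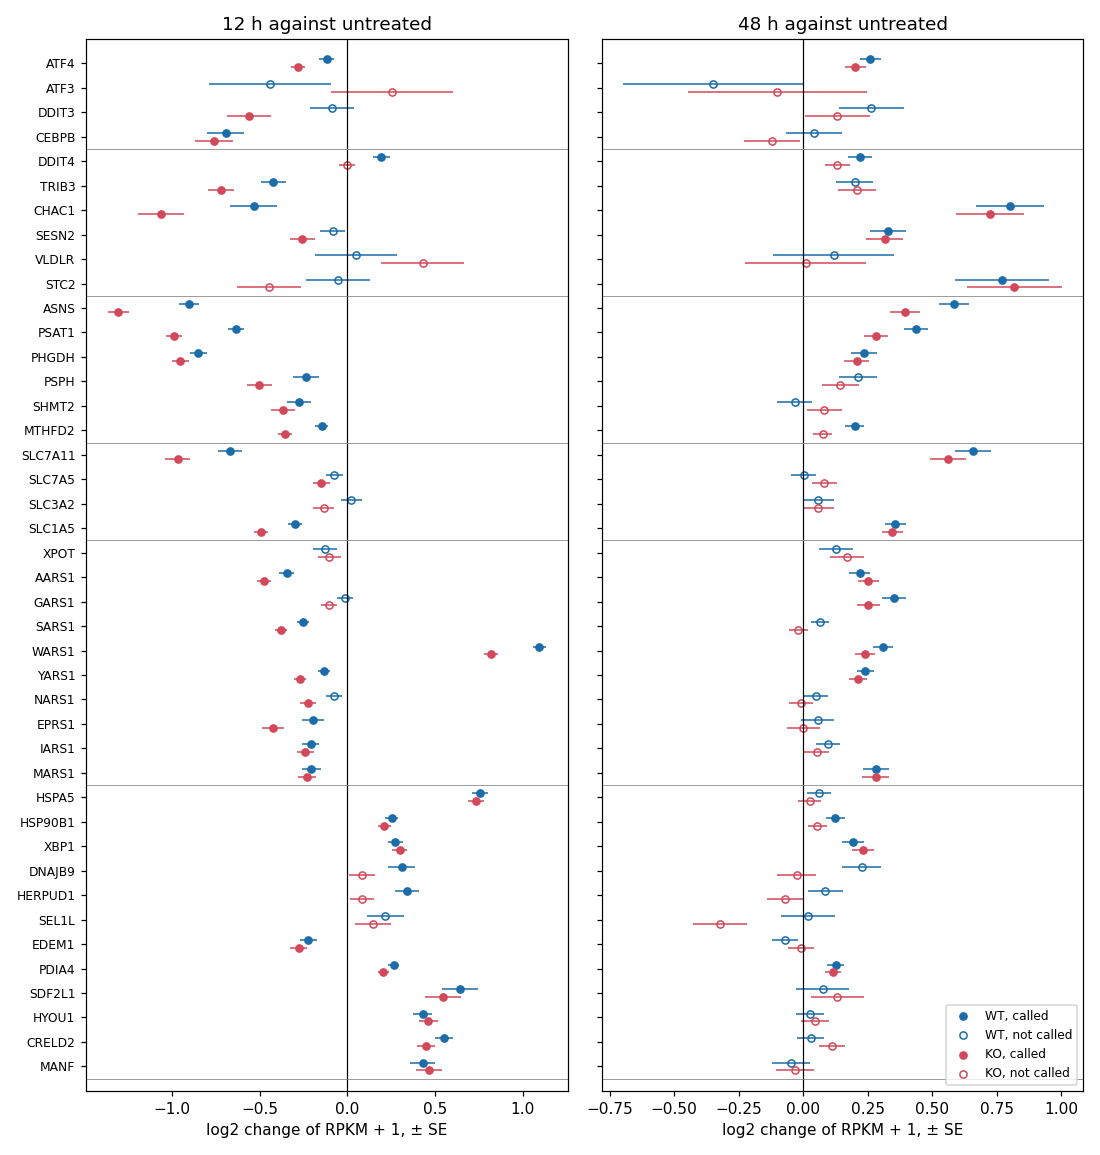
Log2 change of each member against untreated cells at 12 h (left) and 48 h (right), with SE, in WT (blue) and KO (red). Filled points passed the adjusted threshold and open points did not, and grey lines separate the role groups. At 12 h most ER genes lie right of 0 and all synthesis genes left of 0, and at 48 h every filled point lies right of 0.

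The synthesis enzymes fell at 12 h, 6 of 6 in each genotype, with median log2 changes of -0.46 in WT and -0.73 in KO. Among all genes 29.8% in WT and 32.8% in KO were lower. ASNS, which makes asparagine, was at 31.8, 27.3 and 28.6 RPKM in untreated WT, 14.8, 14.7 and 16.0 RPKM at 12 h, and 40.8, 48.0 and 44.1 RPKM at 48 h. Values for KO were 49.7, 48.6 and 49.0 RPKM, then 18.9, 19.4 and 19.5 RPKM, then 64.7, 64.9 and 65.0 RPKM. In each genotype the 3 times did not overlap, with 12 h lowest and 48 h highest. The log2 change at 12 h was -0.90 in WT and -1.31 in KO, and at 48 h 0.58 and 0.39 (SE 0.058, limma, adjusted p = 5.09e-09, 3.12e-11, 2.6e-06 and 0.000199).

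PHGDH and PSAT1 carry out consecutive steps of serine synthesis. PHGDH was at 52.2, 51.0 and 50.3 RPKM in untreated WT, 27.6, 27.5 and 28.7 RPKM at 12 h, and 57.4, 62.7 and 61.2 RPKM at 48 h. KO cells had 67.3, 66.3 and 71.1 RPKM, then 33.2, 34.9 and 36.2 RPKM, then 81.8, 81.7 and 73.6 RPKM. Each genotype again had its 12 h libraries lowest and its 48 h libraries highest, without overlap, and the log2 change at 12 h was -0.85 in WT and -0.95 in KO (SE 0.049, limma, adjusted p = 1.01e-09 and 2.01e-10). PSAT1 was at 54.0, 52.1 and 50.0 RPKM in untreated WT, 34.1, 32.0 and 33.3 RPKM at 12 h, and 69.1, 69.7 and 73.3 RPKM at 48 h. In KO it was at 72.0, 71.2 and 72.6 RPKM, then 37.8, 34.6 and 34.9 RPKM, then 86.0, 84.5 and 92.7 RPKM. The change at 12 h was -0.63 and -0.99 (SE 0.046, limma, adjusted p = 2.01e-08 and 4.99e-11), again without overlap between times.

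The other 3 enzymes changed less. SHMT2, a mitochondrial serine hydroxymethyltransferase, changed by -0.28 and -0.37 at 12 h in WT and KO. PSPH, which completes serine synthesis, changed by -0.24 and -0.50. MTHFD2, a mitochondrial folate enzyme, changed by -0.15 and -0.36. With median-of-ratios scaling the WT calls of MTHFD2 (adjusted p = 0.264) and PSPH (0.121) were lost. The PSPH call was also lost without WT replicate 2 at 0 h or replicate 1 or 2 at 12 h (limma, adjusted p = 0.0728, 0.0637 and 0.059).

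Among the transporters SLC7A11, the cystine importer, and SLC1A5, a neutral amino acid and glutamine importer, fell in both genotypes. SLC7A11 was at 4.70, 4.94 and 4.63 RPKM in untreated WT, 2.70, 2.48 and 2.66 RPKM at 12 h, and 7.35, 8.07 and 8.87 RPKM at 48 h. The KO libraries held 6.98, 6.61 and 7.34 RPKM, then 3.09, 3.05 and 3.08 RPKM, then 10.7, 10.2 and 11.4 RPKM. The 3 times did not overlap in either genotype, and the log2 changes were -0.67 and -0.97 at 12 h and 0.66 and 0.56 at 48 h (SE 0.069, limma, adjusted p = 1.27e-06, 1.53e-08, 4.49e-06 and 2.8e-05).

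SLC1A5 was at 108, 115 and 113 RPKM in untreated WT, 91.2, 91.1 and 90.0 RPKM at 12 h, and 142, 145 and 143 RPKM at 48 h. Levels in KO were 131, 122 and 129 RPKM, then 85.1, 90.3 and 95.5 RPKM, then 162, 166 and 158 RPKM. The log2 change at 12 h was -0.30 and -0.49 (SE 0.041, limma, adjusted p = 2.48e-05 and 9.29e-08), again without overlap between times. SLC7A5 and SLC3A2, the light and heavy chain of the large neutral amino acid transporter, had the highest levels of the 4, at means of 524 to 616 and 389 to 447 RPKM. SLC3A2 was not called at 12 h, with values of 0.02 in WT and -0.14 in KO (-0.18 and adjusted p = 0.0347 without KO replicate 3 at 0 h). SLC7A5 was called in KO, at -0.15, and not in WT, at -0.08. Its KO call was lost without KO replicate 3 at 0 h or replicate 1 at 12 h (adjusted p = 0.102 and 0.0732), and under median-of-ratios scaling (-0.04, adjusted p = 0.522).

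**Figure D3:**
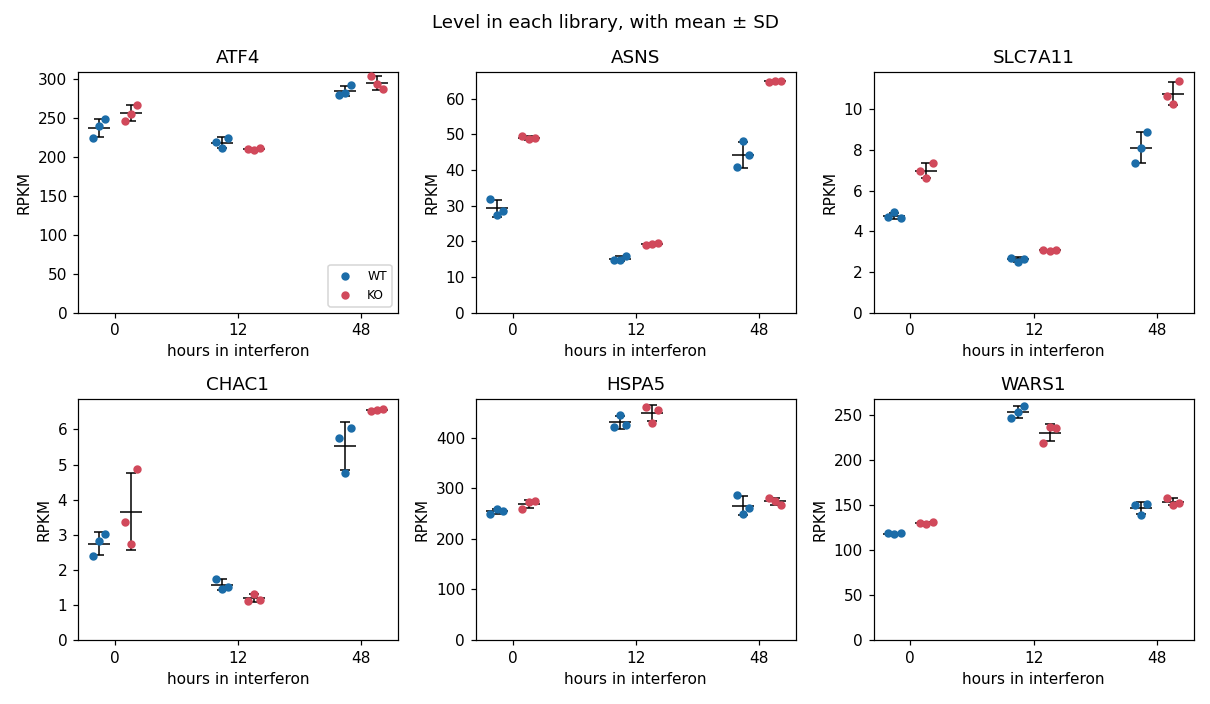
RPKM of ATF4, ASNS, SLC7A11, CHAC1, HSPA5 and WARS1 in each library (points) at 0, 12 and 48 h in interferon, in WT (blue) and KO (red), with the mean (bar) and SD (error bar) of 3 libraries. ASNS, SLC7A11 and CHAC1 are lowest at 12 h and highest at 48 h, whereas HSPA5 and WARS1 are highest at 12 h.

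The tRNA group was split by WARS1, the tryptophanyl-tRNA synthetase and a known interferon-induced gene. It was at 119, 117 and 119 RPKM in untreated WT, 246, 254 and 260.4 RPKM at 12 h, and 149.5, 139 and 152 RPKM at 48 h. Values for KO were 129.5, 129 and 131 RPKM, then 219, 236 and 236 RPKM, then 158, 150.1 and 153 RPKM. The 12 h libraries were highest and the untreated ones lowest in both genotypes, with no overlap. The log2 change at 12 h was 1.09 in WT and 0.82 in KO (SE 0.038, limma, adjusted p = 9.14e-13 and 5.84e-11), and at 48 h 0.31 and 0.24 (adjusted p = 3.38e-05 and 0.000453). Of the members, WARS1 had the largest increase at 12 h in each genotype.

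Of the other 9 genes in the group, 6 fell in WT and 7 in KO at 12 h (against 29.8% and 32.8% of all genes), and the rest were not called. AARS1, for alanine, was at 53.8, 56.7 and 54.4 RPKM in untreated WT and 41.9, 43.0 and 44.2 RPKM at 12 h. KO cells had 59.8, 57.5 and 62.2 RPKM and then 41.8, 43.6 and 42.9 RPKM. The untreated and 12 h libraries did not overlap, and the log2 change was -0.35 in WT and -0.47 in KO (SE 0.041, limma, adjusted p = 6.04e-06 and 1.6e-07). SARS1, for serine, was at 125 to 128 RPKM in untreated WT and 105 to 108 RPKM at 12 h, and at 131 to 142 and 103 to 107 RPKM in KO. Its change was -0.25 and -0.38 (SE 0.036, limma, adjusted p = 3.52e-05 and 4.57e-07).

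YARS1, for tyrosine, was at 74.4, 80.0 and 78.2 RPKM in untreated WT and 69.5, 71.7 and 70.6 RPKM at 12 h. In KO it was at 87.4, 83.5 and 88.4 RPKM and then 72.6, 71.5 and 70.6 RPKM. The groups did not overlap, with log2 changes of -0.13 and -0.27 (SE 0.034, limma, adjusted p = 0.00507 and 1.1e-05). The WT calls of YARS1, IARS1, MARS1 and EPRS1, the last 3 for isoleucine, methionine, and glutamate with proline, were lost under median-of-ratios scaling (adjusted p = 0.407, 0.068, 0.107 and 0.224). Those of AARS1 and SARS1 remained (limma, adjusted p = 0.000172 and 0.00242), where 20.5% of all genes were lower. In KO the calls of MARS1 and NARS1, the latter for asparagine, were lost under this scaling (-0.12 for both, adjusted p = 0.0693 and 0.0548). The EPRS1 call was also lost without WT replicate 1 at 0 h or at 12 h (adjusted p = 0.0927 and 0.0793). GARS1, for glycine, and XPOT, the tRNA exporter, were not called at 12 h in either genotype, with values of -0.02 and -0.10 for GARS1 and -0.13 and -0.10 for XPOT. Without 1 library both were called lower in KO, GARS1 without replicate 1 at 0 h (adjusted p = 0.0465) and XPOT without replicate 3 at 0 h (adjusted p = 0.0285).

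Of 14 further cytosolic synthetases and complex subunits, WT had 6 higher and 5 lower at 12 h, and KO had 5 of each (42.9% and 35.7% higher, 35.7% lower in both, against the shares of all genes given above). The largest were QARS1 (glutamine) at -0.47 and -0.46, CARS1 (cysteine) at -0.30 and -0.44, and FARSA (phenylalanine) at 0.36 and 0.35. Of 17 mitochondrial synthetases WT had 1 higher and 4 lower (23.5%), and KO had 1 higher and 6 lower (35.3%), so that the lower shares were near the 29.8% and 32.8% of all genes.

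ATF4 mRNA itself was lower at 12 h and higher at 48 h than in untreated cells, with log2 changes between -0.28 and 0.26. It was at 225.1, 239.8 and 248 RPKM in untreated WT, 220, 211 and 224.7 RPKM at 12 h, and 279.6, 282 and 292 RPKM at 48 h. The KO libraries held 247, 255 and 268 RPKM, then 211, 209.5 and 212 RPKM, then 305, 293 and 287 RPKM. The 48 h libraries were highest in both genotypes, and the 12 h libraries lay below the untreated ones, with WT replicate 3 at 12 h just under WT replicate 1 at 0 h. The log2 change at 12 h was -0.12 in WT and -0.28 in KO (SE 0.040, limma, adjusted p = 0.0233 and 3.02e-05), and at 48 h 0.26 and 0.20 (adjusted p = 0.000301 and 0.00286). The WT decrease was not called under median-of-ratios scaling (-0.02, adjusted p = 0.671), nor without WT replicate 2 or 3 at 0 h or WT replicate 2 at 12 h (adjusted p = 0.0641, 0.118 and 0.1). ATF4 is controlled mainly in translation, which these libraries do not measure.

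CEBPB, a dimer partner of ATF4, fell at 12 h. It was at 15.8, 15.3 and 16.1 RPKM in untreated WT, 9.73, 8.31 and 10.1 RPKM at 12 h, and 14.9, 17.9 and 16.1 RPKM at 48 h. Levels in KO were 15.1, 12.0 and 17.1 RPKM, then 8.53, 7.57 and 8.45 RPKM, then 11.9, 13.7 and 14.5 RPKM. The 12 h libraries lay below all others in both genotypes, and the 48 h libraries overlapped the untreated ones. The change at 12 h was -0.69 and -0.76 (SE 0.11, limma, adjusted p = 8.04e-05 and 2.68e-05).

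DDIT3, which encodes the pro-apoptotic factor CHOP, was at 4.88, 5.17 and 4.39 RPKM in untreated WT, 4.49, 3.81 and 5.14 RPKM at 12 h, and 6.00, 5.93 and 5.98 RPKM at 48 h. Values for KO were 5.46, 5.22 and 6.28 RPKM, then 3.53, 4.37 and 2.73 RPKM, then 7.28, 5.51 and 6.15 RPKM. At 12 h the KO libraries were below all untreated KO libraries, whereas the WT groups overlapped. The change at 12 h was -0.56 in KO (SE 0.13, limma, adjusted p = 0.00156) and -0.09 in WT (adjusted p = 0.594). ATF3, a stress-induced relative of ATF4, was at 6.96, 6.74 and 19.0 RPKM in untreated WT, where replicate 3 was far above the others, and was not called in any of the 11 comparisons of the fit to all libraries.

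The effectors included the largest increases at 48 h. CHAC1, which degrades glutathione, was at 2.38, 2.83 and 3.01 RPKM in untreated WT, 1.75, 1.46 and 1.52 RPKM at 12 h, and 5.77, 4.76 and 6.05 RPKM at 48 h. KO cells had 3.37, 2.74 and 4.87 RPKM, then 1.12, 1.32 and 1.15 RPKM, then 6.54, 6.55 and 6.59 RPKM. The 3 times did not overlap in either genotype. The log2 changes were -0.54 and -1.06 at 12 h and 0.80 and 0.72 at 48 h in WT and KO (SE 0.13, limma, adjusted p = 0.00361, 7.8e-06, 0.000551 and 0.00134).

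TRIB3, a pseudokinase that restrains ATF4, was at 22.6, 21.3 and 20.9 RPKM in untreated WT, 16.4, 15.7 and 15.5 RPKM at 12 h, and 24.7, 23.2 and 27.0 RPKM at 48 h. In KO it was at 25.3, 23.9 and 30.1 RPKM, then 15.0, 15.8 and 15.9 RPKM, then 29.3, 32.2 and 30.1 RPKM. The 12 h libraries were lowest in both genotypes, and the change was -0.42 and -0.72 (SE 0.072, limma, adjusted p = 0.000213 and 8.44e-07). At 48 h it was not called in either genotype, with values of 0.20 and 0.21 (adjusted p = 0.0843 and 0.0725), and in KO it was called without replicate 3 at 0 h (0.30, adjusted p = 0.00541).

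STC2, a secreted glycoprotein, was at 7.77, 10.9 and 9.32 RPKM in untreated WT, 8.79, 9.07 and 8.73 RPKM at 12 h, and 18.3, 14.5 and 16.8 RPKM at 48 h. The KO libraries held 7.96, 10.0 and 16.7 RPKM, then 8.57, 6.87 and 8.14 RPKM, then 18.8, 18.8 and 23.4 RPKM. The 48 h libraries were highest in both genotypes, and KO replicate 3 at 0 h stood well above its group. The change at 48 h was 0.77 and 0.82 (SE 0.18, limma, adjusted p = 0.0104 and 0.00705). Without WT replicate 1 at 0 h the WT call was lost (0.66, adjusted p = 0.0549). The KO call was lost with only the libraries of the groups compared (limma, adjusted p = 0.1). At 12 h STC2 was not called in KO (-0.45) but was without KO replicate 1 at 0 h (-0.66, adjusted p = 0.00639).

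SESN2, which restrains mTORC1 when leucine is short, was at 7.94, 6.93 and 7.64 RPKM in untreated WT, 7.00, 6.63 and 7.43 RPKM at 12 h, and 9.82, 10.2 and 8.97 RPKM at 48 h. Levels in KO were 7.36, 6.51 and 6.72 RPKM, then 5.09, 5.80 and 5.84 RPKM, then 8.68, 8.90 and 8.75 RPKM. The 48 h libraries were highest in both genotypes, with changes of 0.33 and 0.32 (SE 0.071, limma, adjusted p = 0.00527 and 0.0069). DDIT4, another inhibitor of mTORC1, had mean WT levels of 576 RPKM untreated and 658 and 670.1 RPKM at the later times and was called at both, with changes of 0.19 and 0.22. In KO it was called at neither, with values of -0.00 and 0.13 (0.15 at 48 h with median-of-ratios scaling, adjusted p = 0.0482). VLDLR, a lipoprotein receptor, was the lowest member, at 0.44 to 2.12 RPKM in single libraries, and was called only at 12 h in KO and only without KO replicate 1 at 0 h (0.68, adjusted p = 0.0278).

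At 48 h the pattern across the 42 members was one of increases. In WT 19 were higher (45.2%, against 6.52% of genes) and 0 lower (against 6.3%), and in KO 16 were higher (38.1%, against 5.9%) and 0 lower (against 7.42%). By limma at an unadjusted p under 0.05, 22 members were higher and 0 lower in WT, and 20 were higher and 1 lower in KO (52.4% and 50% of members, against 27.2% and 26.3% of genes). The 1 was SEL1L, which was called lower when genes with a mean under 5 RPKM were left out (-0.32, adjusted p = 0.0421). The median log2 change was 0.16 and 0.12, where the median of all genes was -0.00 and -0.01. The 16 higher members of KO were all among the 19 of WT, an overlap that was likewise not counted over all genes. Outside the ER group 16 of 30 were higher in WT and 14 in KO. Between 12 and 48 h, the WT members showed 25 increases (59.5%, against 24.6% of genes) and 9 decreases (21.4%, against 11.3%). Those of KO showed 28 increases (66.7%, against 27.7%) and 9 decreases (21.4%, against 14%). Median-of-ratios scaling gave 19 risen (against 16.1% of genes) and 11 fallen (against 18.2%) in WT, and 26 risen (against 19.1%) and 11 fallen (against 21.1%) in KO. The 3 comparisons within a genotype share libraries and are not independent of each other.

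Genes next to the members in the pathway were counted from further lists. Of 18 other ATF4 targets and partners tested, WT had 1 higher and 9 lower at 12 h, and KO had 2 higher and 12 lower. Among all genes 15.1% were higher and 29.8% lower in WT, and 16% and 32.8% in KO. The largest changes were those of the stress factor NUPR1, at -1.20 and -1.73, the secreted cytokine GDF15, at -0.90 and -1.23, and KLHL24, a ubiquitin ligase adaptor that acts on keratin 14, at -0.84 and -1.24. From 12 to 48 h, WT had 13 higher and 1 lower of the 18 (against 24.6% and 11.3% of genes). KO had 16 higher and 1 lower (against 27.7% and 14%).

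Of 14 genes for eIF2 kinases, eIF2 and eIF2B subunits and the eIF2 phosphatase, 3 were higher and 5 lower at 12 h in each genotype, or 21.4% and 35.7%, near the shares of all genes (15.1% and 29.8% in WT, 16% and 32.8% in KO). EIF2AK2, which encodes PKR, was at 19.4, 20.3 and 19.7 RPKM in untreated WT, 100.8, 108 and 108 RPKM at 12 h, and 86.7, 82.1 and 86.6 RPKM at 48 h. Values for KO were 20.3, 20.5 and 20.8 RPKM, then 118, 105 and 109.7 RPKM, then 83.7, 80.5 and 85.9 RPKM. All treated libraries lay far above the untreated ones, and the log2 change at 12 h was 2.35 in WT and 2.37 in KO (SE 0.045, limma, adjusted p = 2.21e-16 and 1.77e-16). PPP1R15A, an inducible ATF4-pathway gene whose product GADD34 brings the phosphatase to eIF2, fell by 0.51 and 0.41 at 12 h and by 0.47 and 0.44 at 48 h in WT and KO (SE 0.12, limma, adjusted p = 0.00236, 0.00814, 0.0136 and 0.0213). EIF2AK3, the ER-resident kinase PERK, was not called, with values of -0.16 and -0.19 at 12 h. Phosphorylated eIF2 was not measured.

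KO differed from WT in a subset of the ATF4-type members, and all but 1 of the calls were increases. At 0 h 9 members were higher in KO (21.4%, against 2.82% of genes) and 0 lower (against 2.07%). At 12 h 3 were higher (7.14%, against 1.6%) and 1 lower (2.38%, against 2.02%). At 48 h 8 were higher (19%, against 2.03%) and 0 lower (against 2.16%). By limma at an unadjusted p under 0.05, 26 were higher and 1 lower at 0 h, 9 and 3 at 12 h, and 18 and 2 at 48 h, which is 64.3%, 28.6% and 47.6% of members against 18.1%, 17% and 16.4% of genes. With median-of-ratios scaling 8, 3 and 7 members were higher (against 2.08%, 1.56% and 1.74% of genes) and 0, 2 and 0 lower (against 2.36%, 2.35% and 2.41%). Of the 12 ER genes 0 were called at 0, 12 or 48 h, and 6, 2 and 4 had an unadjusted p under 0.05 (50%, 16.7% and 33.3%), the share at 12 h being that of all genes. EDEM1 passed at 48 h without WT replicate 3 (0.22, adjusted p = 0.0332). These counts moved with single libraries. At 0 h 5 were called without KO replicate 1. At 12 h 2 were called without replicate 3 of WT or of KO. At 48 h 4 were called without replicate 1 of WT or of KO, and 5 without replicate 2 of either.

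ASNS, PHGDH and GARS1 were higher in KO at all 3 times. For ASNS the untreated KO libraries lay above all untreated WT libraries, and the same was true at 12 and 48 h. The log2 differences at the 3 times were 0.73, 0.33 and 0.54 (SE 0.058, limma, adjusted p = 8.43e-07, 0.00371 and 2.52e-05). For PHGDH, whose KO and WT libraries also did not overlap at any time, it was 0.41, 0.31 and 0.38 (SE 0.049, limma, adjusted p = 6.68e-05, 0.00136 and 0.000155).

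GARS1 was at 108, 105 and 100.4 RPKM in WT and 124, 133 and 129.9 RPKM in KO at 0 h, 105, 107 and 98.5 against 118, 119.8 and 122 RPKM at 12 h, and 129.5, 132 and 139 against 164, 152 and 146 RPKM at 48 h. KO was above WT without overlap each time, and the log2 difference was 0.30, 0.21 and 0.20 (SE 0.045, limma, adjusted p = 0.000661, 0.0128 and 0.0163). The 12 h call of GARS1 was lost without replicate 3 of WT or of KO (adjusted p = 0.077 and 0.0549). Its 48 h call was lost without WT replicate 1 or 2 or KO replicate 1 (adjusted p = 0.0708, 0.0627 and 0.0875). With only the libraries of the groups compared, the 12 and 48 h calls were both lost (limma, adjusted p = 0.056 and 0.127).

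ASNS and GARS1 lie on chromosome 7, where the median difference of the other genes was above 0. The median KO minus WT difference of the 592 other genes on chromosome 7 was 0.09, 0.08 and 0.07 at 0, 12 and 48 h, the highest of 23 chromosomes at each time. Of those genes 8.28%, 4.73% and 4.22% were called higher at 0, 12 and 48 h. The part of this shift in the ASNS and GARS1 differences was not tested. PSPH, DNAJB9 and PDIA4, the other members on chromosome 7, were not called at any time with all libraries, although PSPH was at 0 h without KO replicate 2 (0.31, adjusted p = 0.037). The other 8 members called higher in KO lie on other chromosomes.

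PSAT1, SLC7A11, SLC1A5 and TRIB3 were higher in KO at 0 and 48 h and not called at 12 h. PSAT1 differed by 0.46 at 0 h and 0.31 at 48 h (SE 0.046, limma, adjusted p = 8.32e-06 and 0.00063), and by 0.11 at 12 h (adjusted p = 0.242). SLC7A11 differed by 0.47 and 0.37 (SE 0.069, limma, adjusted p = 0.000501 and 0.00387), and by 0.17 at 12 h (adjusted p = 0.205). With only the libraries of the groups compared, the 48 h call of SLC7A11 was lost (limma, adjusted p = 0.0838). In PSAT1 and SLC7A11 the KO and WT libraries did not overlap at any time. SLC1A5 differed by 0.19 and 0.18 (limma, adjusted p = 0.0129 and 0.0205) and TRIB3 by 0.27 and 0.28 (adjusted p = 0.0403 and 0.0377), and at 12 h they were at -0.01 and -0.03.

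The SLC1A5 and TRIB3 calls did not hold without some of the single libraries. At 0 h the SLC1A5 call was lost without replicate 1 of WT or of KO (limma, adjusted p = 0.0622 and 0.0677). At 48 h it was lost without WT replicate 1 or 3 or KO replicate 1 or 2 (adjusted p = 0.0655, 0.0663, 0.063 and 0.0851). The TRIB3 call at 0 h was lost without any 1 of WT replicates 1, 2 and 3 (adjusted p = 0.0548, 0.123 and 0.14) and without KO replicate 1 or 3 (adjusted p = 0.0654 and 0.133), and under median-of-ratios scaling (0.0611). At 48 h it was lost without WT replicate 1 or 2 (adjusted p = 0.0978 and 0.167) and without KO replicate 1, 2 or 3 (adjusted p = 0.061, 0.139 and 0.0852).

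MTHFD2 and YARS1 were called at 0 h, AARS1 at 48 h and SESN2 at 12 h. MTHFD2 was at 105, 107 and 111 RPKM in WT and 126, 121 and 119.8 RPKM in KO at 0 h, without overlap, a difference of 0.18 (SE 0.038, limma, adjusted p = 0.00976, and 0.0553 without KO replicate 1). YARS1 differed by 0.16 at 0 h (SE 0.034, limma, adjusted p = 0.0146), and was not called without WT replicate 1 or KO replicate 1 or 3 (adjusted p = 0.0728, 0.0613 and 0.0551). At 48 h YARS1 was called without KO replicate 3 alone (0.15, adjusted p = 0.0458). AARS1 was at 64.9, 63.6 and 63.9 RPKM in WT and 73.5, 73.4 and 67.5 RPKM in KO at 48 h, a difference of 0.15 (limma, adjusted p = 0.0461). SESN2, the only member called lower in KO with the deposited scaling, differed by -0.29 at 12 h (limma, adjusted p = 0.0322), with no overlap. AARS1 lost its call without WT replicate 1, 2 or 3 (adjusted p = 0.0826, 0.144 and 0.12) or KO replicate 1 or 2 (0.173 and 0.157). It also lost it with median-of-ratios scaling (0.0785). SESN2 lost its call without WT replicate 1 or 3 (0.0954 and 0.139) or without KO replicate 1, 2 or 3 (0.153, 0.0519 and 0.0506). With median-of-ratios scaling WARS1 was also called lower in KO at 12 h (-0.15, adjusted p = 0.045, against -0.14 and 0.0585).

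**Figure D4:**
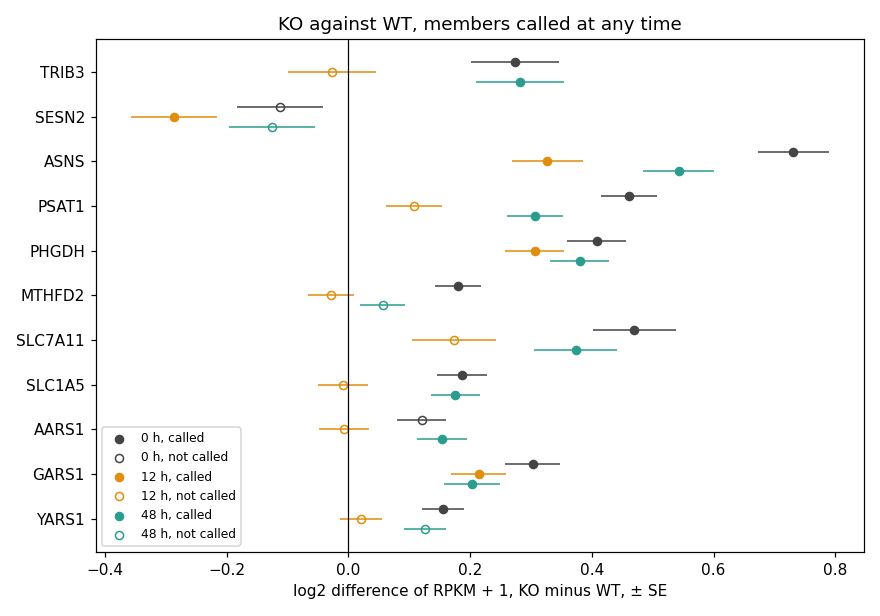
KO minus WT difference in log2(RPKM + 1), with SE, at 0 h (grey), 12 h (orange) and 48 h (green) for the 11 members called at any time, with filled points past the adjusted threshold and open points not. ASNS, PHGDH and GARS1 are filled at all 3 times, and for ASNS the difference is 0.73, 0.33 and 0.54.

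Related genes outside the list were compared in the same way. Of the 18 other ATF4 targets and partners, 2 were higher in KO at 0 h, 0 at 12 h and 4 at 48 h by limma, and 0 were lower at any time. Among all genes 2.82%, 1.6% and 2.03% were higher at the 3 times, and 2.07%, 2.02% and 2.16% lower. At an unadjusted p under 0.05 the list had 9, 4 and 10 genes at the 3 times (50%, 22.2% and 55.6%, against 18.1%, 17% and 16.4% of all genes). CTH, an enzyme of cysteine synthesis, differed by 0.65 at 0 h and 0.54 at 48 h (adjusted p = 0.00582 and 0.0208), and PYCR1, an enzyme of proline synthesis, by 0.31 and 0.46 (adjusted p = 0.0244 and 0.00125). Of the 21 further ER genes, 0 were called by limma at any time, with 6, 6 and 3 at an unadjusted p under 0.05 (28.6%, 28.6% and 14.3%), at 48 h a smaller share than that of all genes. The eIF2 kinase PKR was not called, with differences of 0.05, 0.07 and -0.03.

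Whether the response to interferon differed between the genotypes was asked with the interaction, the KO change minus the WT change. At 12 h 0 of the 42 members passed in limma (against 0.0753% of genes), and 18 had an unadjusted p under 0.05 (42.9%, against 5.75% of genes), all of them below 0. The direction of the genes making up those 5.75% was not counted. Of the 42 members 36 had a KO change below the WT change, against 53.6% of all genes. The median interaction of the members was -0.13, against -0.01 over all genes. By role the medians were -0.24 for synthesis enzymes, -0.25 for effectors, -0.18 for transporters, -0.13 for the tRNA group, -0.11 for transcription factors and -0.06 for ER genes. The interaction at 12 h and the KO minus WT difference at 0 h share the untreated libraries, so the 2 sets of values are not independent.

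The members nearest the threshold were PSAT1, WARS1 and ASNS. The interaction of PSAT1 was -0.35 (SE 0.064, limma, adjusted p = 0.0556). That of WARS1 was -0.28 (SE 0.054, adjusted p = 0.085), and that of ASNS was -0.40 (SE 0.082, adjusted p = 0.113). PSAT1 passed when only genes with a mean of at least 5 RPKM were tested (adjusted p = 0.0379) and without KO replicate 1 at 12 h (0.036), and ASNS passed without WT replicate 1 at 0 h (0.0423). At 48 h 0 members passed (against 0.0828% of genes) and 5 had an unadjusted p under 0.05 (11.9%, against 6.22% of genes). A difference between genotypes in the response of any single member was therefore not called, which does not show that the responses were equal.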

How the data were processed

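The authors deposited 1 table of RPKM values for 16472 Ensembl genes in 18 libraries. The submitters' processing notes name cutadapt, STAR 2.6.1, RSEM 1.3.0, limma 3.50.3 and hg19, without roles. The annotation, the read total behind the RPKM, the use of strand and the handling of reads shared with pseudogenes, which several members have, are not given in the sources used here. Stranded mRNA libraries were made, per the labels' protocols.

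No count model was used, because RPKM is a normalized unit. In limma 3.58.1 under R 4.3.3, log2(RPKM + 1) of all 18 libraries was fitted with 1 mean per group and moderated variances with a mean trend. Genes with at least 1 RPKM in at least 3 libraries were tested (13280, all 42 members among them). Within each of 11 comparisons the Benjamini-Hochberg adjustment covered every tested gene, with a threshold of 0.05. The fit was also run on simulated normal values with far fewer changed genes than were called here at 12 h. That run does not show how the fit performs on these data. SE are from limma.

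Total depth is unknown. Relative depth came from the smallest positive values of 951 genes, and in 95.4% of pairs the ratio was within 3% of the fit. No counting interval was computed. Replicates correlated at 0.985 to 0.989 over genes.

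The members, the further gene lists and the motifs were chosen with earlier results of these data known. Per-library values are given for the members called in KO against WT and for ATF4, DDIT3, ASNS, HSPA5, XBP1 and WARS1. They are also given for the 3 per role group with the largest change at 12 h called in both genotypes. The 1 per role group with the largest change at 48 h is included. CRELD2 and SARS1 are given as ranges. From other lists at most 3 called genes per comparison are named by largest change, plus EIF2AK2, EIF2AK3 and PPP1R15A. Chromosomes came from GENCODE release 29 by gene ID. That comparison, and the naming of ATF3, DDIT4 and VLDLR values, followed sight of the data. The RefSeq promoter table is on GRCh38.p14, and no coordinate of the authors' build is given.

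Alternatives were a pseudocount of 0.1, no filter, a mean of at least 5 RPKM, median-of-ratios scaling, only the libraries compared, no variance trend, a block for the replicate number, and leaving out each library.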

Additional observations from a re-analysis of the deposited data

How the results depend on the processing

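Of 190 member calls over the 11 comparisons, 150 held under every alternative, 40 were lost under at least 1, and 0 reversed. All alternatives were run. With only the libraries compared, the members called in KO against WT fell to 5 at 0 h, 2 at 12 h and 3 at 48 h. The calls lost were TRIB3, MTHFD2, SLC1A5 and YARS1 at 0 h, and SESN2 and GARS1 at 12 h. At 48 h they were TRIB3, SLC7A11, SLC1A5, AARS1 and GARS1. With a mean of at least 5 RPKM, 1 member passed the interaction at 12 h. Leaving out 1 library gave 29 to 31 calls at 12 h and 17 to 19 at 48 h against 0 h in WT, 32 to 35 and 15 to 17 in KO, and 30 to 33 and 34 to 37 at 48 h against 12 h in WT and KO. It gave 5 to 10, 2 to 4 and 4 to 8 calls in KO against WT at 0, 12 and 48 h, and 0 to 1 and 0 to 0 in the interactions at 12 and 48 h.

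No pairing of the libraries by replicate number was detected. The deviations of same-number pairs correlated at -0.097 to 0.157 over 45 pairs (median -0.013). Those of different-number pairs correlated at -0.109 to 0.145 (median 0.009), and 2 of 18 libraries were closest to their own number. With the replicate number as a block the calls were 31, 18 and 32 in WT (12 h against 0 h, 48 h against 0 h, 48 h against 12 h), 33, 16 and 36 in KO, 9, 3 and 7 in KO against WT at 0, 12 and 48 h, and 0 in both interactions. Under the block TRIB3 at 0 and 48 h, SESN2 at 12 h and AARS1 at 48 h were no longer called in KO against WT (adjusted p = 0.0548, 0.0516, 0.0586 and 0.0793), and ATF3 at 0 h and EDEM1 at 48 h were (0.0381 and 0.0491).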
